A study of Homo sapiens with 6 samples.

Results

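The 37 genes of the human mitochondrial genome and 394 nuclear copies of mitochondrial protein genes were read in LoVo cells after knockdown of SRSF11, a serine/arginine-rich splicing factor. Members were all genes that the deposited table places on the mitochondrial chromosome (MT), together with genes on other chromosomes whose names mark them as copies of a mitochondrial gene (MT, the gene's short name, P and a number). They made up 431 of the 58735 genes in the table. The mitochondrial genes comprised 13 mRNA genes, 2 rRNA genes and 22 tRNA genes. The copies were annotated as 223 processed, 168 unprocessed, 2 transcribed processed and 1 transcribed unprocessed pseudogenes, and no copy of an rRNA gene matched the naming rule. LoVo is an established human colorectal cancer line. Cells were transfected with a negative control siRNA (si-NC, 3 libraries) or with SRSF11 siRNA (si-SRSF11, 3 libraries), with no other treatment named in the labels. The labels do not give the time after transfection or which SRSF11 siRNA was used, and do not say that the replicates were separate cultures, so p-values measure the spread between these samples. The study describes its RNA samples as independent and in 3 pairs, without saying what was paired.

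The mitochondrial genome is a small circular DNA present in many copies per cell. It is transcribed from both strands into long precursor RNAs, and tRNAs that stand between the other genes are cut out to release the mRNAs and rRNAs. Its mRNAs code for core subunits of respiratory chain complexes I, III and IV and of the ATP synthase (complex V), and all other subunits come from nuclear genes. Most mitochondrial mRNAs carry a short poly(A) tail, while MT-ND6, the only mRNA of the light strand, is known to lack one. Over evolutionary time, pieces of mitochondrial DNA have been inserted into the chromosomes, and these inserts are the nuclear copies.

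RNA was selected on poly-T beads and read as pairs of 150 bp, and the authors deposited whole-number read counts per gene on hg38. Library totals ran from 14369525 to 16685719 counts. For comparison between libraries, counts were scaled to CPM, that is, relative to library totals corrected by TMM factors. The quasi-likelihood test of edgeR was run on 15801 genes, those reaching 10 counts in 3 or more libraries. A gene was called at a Benjamini-Hochberg adjusted p under 0.05 over all tested genes. SRSF11 itself had 1271, 1281 and 1363 counts in si-NC and 789, 789 and 807 in the libraries labelled si-SRSF11. Its log2 fold change was -0.81 (standard error 0.054, edgeR adjusted p = 6.1e-10), with 57.2% of the si-NC level left. A figure of the study assigns the 2 conditions to the libraries the other way round. GEO's labels were followed, and every direction rests on them. Colorectal epithelial markers were present (11 of 11 tested, summed level 6029 to 6402 CPM in si-NC and 6101 to 6536 in si-SRSF11). KRT8 gave the largest part of the sum, with 3134 CPM in si-NC and 3292 in si-SRSF11. KRT20 averaged only 0.757 CPM, and CEACAM5 only 1.06 in si-NC and 0.826 in si-SRSF11. CDX2 and CDX1 among the 11 were higher in si-SRSF11, by 0.40 and 0.31 on the log2 scale. Among markers of other cells, PTPRC, HBA1, KDR, DCN and LUM were at 0 in all libraries. The 6 blood and immune markers summed to at most 0.191 CPM in a library, the 4 endothelial markers to 1.47 to 2.56 CPM in si-NC and 0.796 to 2.04 in si-SRSF11, and the 6 fibroblast markers summed to 19.7 to 23.1 CPM in si-NC and 24.6 to 28.9 in si-SRSF11. PDGFRB rose among the last (log2 fold change 0.70, edgeR adjusted p = 0.00023), and the part of these markers in the results was not tested.

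Most mitochondrial mRNAs rose after SRSF11 knockdown, and neither rRNA was called. Counts on the mitochondrial genome took 7.12%, 7.25% and 7.003% of all counts in the si-NC libraries and 8.29%, 8.51% and 8.31% in si-SRSF11. Every si-SRSF11 library lay above every si-NC library, and the ratio of the means was 1.17 (p = 0.10 by an exact two-sided permutation test, the lowest value possible with 3 libraries against 3). The mRNA share averaged 6.52% ± 0.106 with si-NC and 7.79% ± 0.137 with si-SRSF11 (SD, n = 3 each). The rRNA share averaged 0.533% ± 0.0206 with si-NC and 0.498% ± 0.00786 with si-SRSF11 (SD, n = 3 each), lower in si-SRSF11 with no overlap between the groups. Counts on rRNA genes per 100 counts on mRNA genes were 7.97, 8.42 and 8.14 in si-NC and 6.57, 6.16 and 6.46 in si-SRSF11 (p = 0.10, exact two-sided permutation test). Wilson 95% intervals around the share on the mitochondrial genome reached at most 0.0136 percentage points to either side, and such intervals cover counting error only. In RNA from a whole culture, more RNA per cell and more cells with that RNA cannot be told apart.

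Among the 13 mRNA genes, 12 were higher in si-SRSF11 and none was lower, and the gene that was not called was MT-ATP8. Over all tested genes, 24.6% were called, 13.2% as higher and 11.4% as lower. The median log2 fold change of the mRNA genes was 0.34, beside 0.00 over all tested genes and 0.01 over nuclear protein-coding genes. In the 12 called genes each si-SRSF11 library lay above each si-NC library, and 38.8% of all tested genes had no overlap between the groups in either direction. None of the mRNA genes passed an absolute log2 fold change of 1. The 12 calls held in all 13 alternative fits, which changed the scaling, filter, test or block or left out 1 library at a time. Scaling to the mitochondrial mRNA pool asks another question and is given apart.

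**Figure D1:**
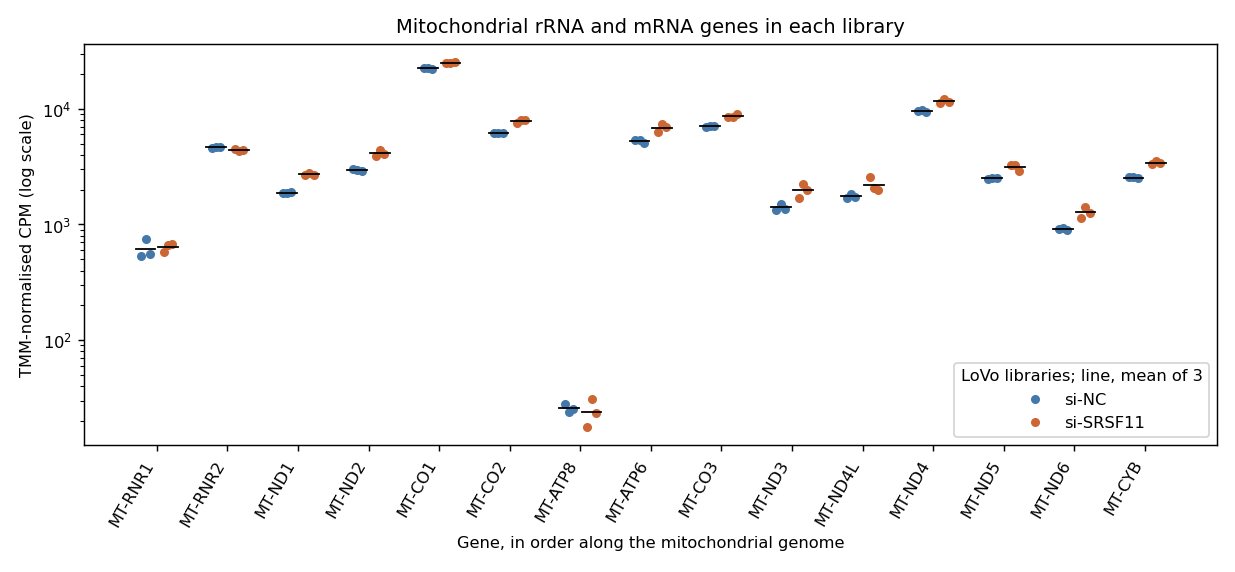
TMM-normalised CPM (log axis) of the 2 rRNA and 13 mRNA genes of the mitochondrial genome in each of the 6 libraries, with points for libraries and lines for the means of 3. The si-SRSF11 points lie above all si-NC points for 12 mRNA genes, while MT-ATP8 and MT-RNR1 overlap and MT-RNR2 lies lower.

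The 7 complex I genes code for membrane subunits of NADH dehydrogenase, the entry point of electrons from NADH. MT-ND1 (ENSG00000198888, MT:3307-4262, plus strand) had 1872, 1879 and 1909 CPM in si-NC and 2687, 2810 and 2663 in si-SRSF11. It had the largest log2 fold change of the mRNA genes, 0.53 (standard error 0.039, edgeR adjusted p = 1.9e-09). MT-ND2 stood at 3018, 2982 and 2879 CPM in si-NC against 3937, 4405 and 4086 in si-SRSF11, a log2 fold change of 0.49 (standard error 0.042). MT-ND3 and MT-ND6 rose by a like amount, with log2 fold changes of 0.49 and 0.47, but with a wider spread among the si-SRSF11 libraries. MT-ND3 ran from 1699 to 2244 CPM there and MT-ND6 from 1143 to 1409, and replicate 1 was the lowest in both. MT-ND4L showed the reverse, with 2548 CPM in si-SRSF11 replicate 1 and 2078 and 1992 in the other two, against 1684 to 1830 in si-NC. Its log2 fold change was 0.34 (edgeR adjusted p = 0.00038), or 0.22 without si-SRSF11 replicate 1 (adjusted p = 0.00032), and those of MT-ND5 and MT-ND4 were 0.33 and 0.28. MT-ND6 is read from the strand opposite MT-ND5. The library protocol in the labels names no step that marks strand, so RNA from the 2 strands cannot be told apart at that locus. How RNA without a poly(A) tail came through the poly-T selection was not tested.

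MT-CYB, the only mitochondrial subunit of complex III, had 2561, 2559 and 2510 CPM in si-NC and 3304, 3517 and 3375 in si-SRSF11. The groups were well separated, at a log2 fold change of 0.42 (standard error 0.038, edgeR adjusted p = 4.6e-08). The 3 complex IV genes code for the catalytic core of cytochrome c oxidase. MT-CO1 (ENSG00000198804, MT:5904-7445, plus strand) was the most abundant member, with 22540, 22293 and 22131 CPM in si-NC and 24935, 24657 and 25247 in si-SRSF11. It had the smallest rise of the 12 called mRNA genes, a log2 fold change of 0.16 (standard error 0.028, edgeR adjusted p = 0.00019). MT-CO2 and MT-CO3 rose by 0.33 and 0.30 on the log2 scale.

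Complex V has 2 mitochondrial genes whose reading frames overlap on a shared mRNA. MT-ATP6 (ENSG00000198899, MT:8527-9207, plus strand), which forms part of the proton channel, had 5323, 5356 and 5063 CPM in si-NC and 6272, 7419 and 6956 in si-SRSF11 (log2 fold change 0.39, standard error 0.046, edgeR adjusted p = 1.6e-06). MT-ATP8 (ENSG00000228253, MT:8366-8572, plus strand), a small membrane subunit, had 405, 367 and 397 counts in si-NC and 278, 509 and 381 in si-SRSF11. The si-SRSF11 libraries spanned the si-NC range on both sides, and MT-ATP8 was not called (log2 fold change -0.10, standard error 0.13, edgeR adjusted p = 0.64). Without si-SRSF11 replicate 1 its log2 fold change was 0.08, and without replicate 2 it was -0.33 with an edgeR adjusted p of 0.045. The overlap of 46 bases takes up 22.2% of MT-ATP8 and 6.8% of MT-ATP6, and the sources used here do not give how reads on more than 1 gene were counted. MT-ATP8 is 207 bases long, so read pairs on it can also reach MT-ATP6. In si-NC, MT-ATP8 stood at 125 CPM per kb and MT-ATP6 at 7705, although they share an mRNA. The MT-ATP8 count is therefore a poor measure of that mRNA, and the cause was not tested. The overlap is shown because reads in it bear on both genes.

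MT-ATP8 and MT-ATP6, MT:8527-8572, plus strand: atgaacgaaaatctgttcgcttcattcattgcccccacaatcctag

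MT-ATP8 counts per 100 MT-ATP6 counts were 0.524, 0.450 and 0.502 in si-NC and 0.283, 0.421 and 0.335 in si-SRSF11. The si-SRSF11 libraries all lay below si-NC (exact two-sided permutation test, p = 0.10), with the same limit on the MT-ATP8 count. For the other bicistronic pair, MT-ND4L counts per 100 MT-ND4 counts were 17.4, 18.9 and 18.6 in si-NC and 22.8, 17.2 and 17.3 in si-SRSF11, so that 1 si-SRSF11 library lay above and 2 below the si-NC range.

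The 2 rRNA genes were not called. MT-RNR2, the 16S rRNA of the large mitochondrial ribosomal subunit, had 4614, 4710 and 4630 CPM in si-NC and 4482, 4298 and 4417 in si-SRSF11. Each si-SRSF11 library was lower, at a log2 fold change of -0.08 (standard error 0.035, edgeR adjusted p = 0.10). Scaling by library size alone gave -0.12 with an adjusted p of 0.012, and leaving out si-SRSF11 replicate 1 or 3 gave adjusted p of 0.019 and 0.026. MT-RNR1, the 12S rRNA of the small subunit, had 535, 753 and 552 CPM in si-NC and 575, 662 and 680 in si-SRSF11. Its si-NC replicate 2 was the highest of the 6 libraries, and the log2 fold change was 0.06 (standard error 0.086, edgeR adjusted p = 0.66). It was called only without si-NC replicate 2, at 0.23 (adjusted p = 0.018), and turned negative without si-NC replicate 1 (-0.03) or 3 (-0.01).

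tRNA genes are shorter than the sequenced fragments, which were selected at a length well above theirs, so a tRNA count is of reads that also reach neighbouring sequence or precursor RNA. Of the 22 tRNA genes, 12 passed the count filter and 10 did not, and the latter held at most 16 counts in a library. MT-TE and MT-TN were called, both as higher. That is 16.7% of the 12 tested, below the 24.6% called over all tested genes. MT-TE, the glutamate tRNA between MT-ND6 and MT-CYB, had 14, 13 and 11 counts in si-NC and 31, 28 and 24 in si-SRSF11, at a log2 fold change of 1.03 (standard error 0.32, edgeR adjusted p = 0.022). The groups did not overlap, but the counts are small, and DESeq2 gave an adjusted p of 0.058. The edgeR adjusted p was between 0.051 and 0.084 without si-NC replicate 2 or 3 or si-SRSF11 replicate 1 or 2. Its sequence is printed because it had the largest rise of the called mitochondrial genes.

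MT-TE, MT:14674-14742, minus strand: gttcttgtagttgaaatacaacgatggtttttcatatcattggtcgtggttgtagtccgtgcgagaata

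MT-TN, the asparagine tRNA, had 355, 429 and 397 CPM in si-NC and 517, 395 and 460 in si-SRSF11, and these ranges overlapped. Its log2 fold change was 0.22 (standard error 0.073, edgeR adjusted p = 0.033), and the call was lost with DESeq2 (adjusted p = 0.28) and with scaling by library size (0.077). It was also lost without si-NC replicate 1 (0.22) or 3 (0.075) and without si-SRSF11 replicate 1 (0.23) or 3 (0.056). MT-TN, MT-TC, MT-TP and MT-TY, all on the minus strand, held most tRNA counts, from 5154 to 8098 for MT-TN down to 262 to 342 for MT-TY. The remaining tRNAs that passed had at most 96 counts in a library. MT-TL1, the leucine tRNA that directly follows MT-RNR2, had 74, 71 and 96 counts in si-NC and 48, 59 and 77 in si-SRSF11 (log2 fold change -0.48, edgeR adjusted p = 0.071), and was called without si-SRSF11 replicate 3 (-0.67, adjusted p = 0.024). Log2 fold changes of the tRNAs that were not called ran from -0.86 for MT-TL2 to 0.60 for MT-TR.

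**Figure D2:**
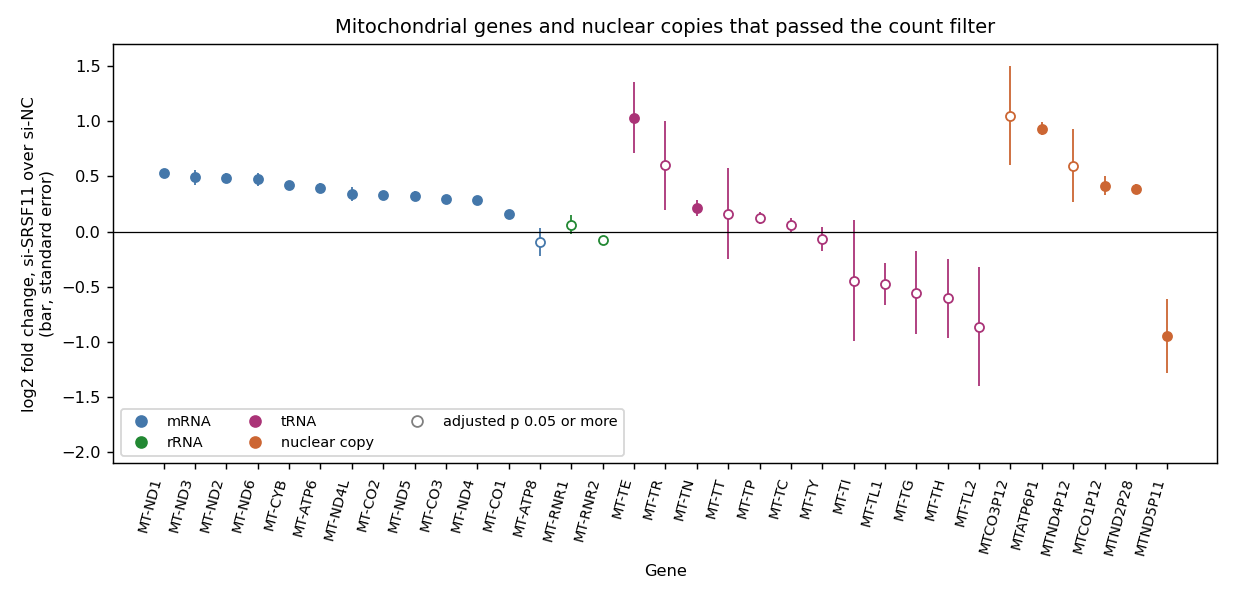
Log2 fold change of si-SRSF11 over si-NC (vertical axis) for the 33 mitochondrial genes and nuclear copies that passed the count filter, coloured by class, with bars of 1 standard error. Filled points have an adjusted p under 0.05, and 12 of the 13 mRNA genes are filled and above 0, while the bars are widest for tRNAs with few counts.

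Per length, the order of the mRNA levels was the same in both conditions. MT-CO1 led with 14476 ± 134 CPM per kb (SD, n = 3) in si-NC, followed by MT-CO2 (9081), MT-CO3 (9011), MT-ATP6 (7705) and MT-ND4 (6930). MT-CO2 and MT-CO3 overlapped in si-NC, and no other pair of neighbours in the order did. In si-SRSF11, MT-CO2 and MT-CO3, MT-CO3 and MT-ATP6, MT-ND4 and MT-ND4L, and MT-CYB and MT-ND1 overlapped. MT-ND5, the last gene but MT-ATP8, stood at 1384 ± 14.9 CPM per kb, and MT-ATP8 at 125 ± 9.24. The genes differ in length, position and base composition, and their levels were not compared further.

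Within the mRNA pool, the share of MT-CO1 was smaller in si-SRSF11 and those of MT-ND1, MT-ND2 and MT-CYB were larger. MT-CO1 took 34.9%, 34.3% and 34.8% of the mitochondrial mRNA counts in si-NC and 32.4%, 30.6% and 32.0% in si-SRSF11. MT-ND1 took 2.93% ± 0.0589 and 3.45% ± 0.0660, and MT-CYB 3.95% ± 0.0136 and 4.31% ± 0.0496 (SD, n = 3 each). Wilson 95% intervals reached at most 0.0964 percentage points to either side. The shares of MT-ND1, MT-ND2, MT-CO2, MT-ND6 and MT-CYB lay above si-NC without overlap and that of MT-CO1 below, each with p = 0.10 in the exact two-sided permutation test and 0.22 after adjustment over the 13 genes. Complex IV genes together took 55.3% ± 0.396 of the pool with si-NC and 52.6% ± 1.24 with si-SRSF11, and complex I genes 32.6% ± 0.261 and 34.3% ± 0.875 (SD, n = 3 each), both without overlap. The complex IV fall lay in MT-CO1, as the share of MT-CO2 rose and that of MT-CO3 averaged 10.97% and 11.01% with overlap. A smaller share of MT-CO1 also means larger shares of other genes.

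Because 3 libraries against 3 cannot pass 0.05 by permutation, edgeR was also run with the summed mitochondrial mRNA counts as library size, an alternative chosen after seeing the data. This scaling moved the median log2 fold change of all tested genes to -0.29, and it reads each gene against the mitochondrial mRNA pool. Under it 8964 of the 15801 tested genes were called, 277 as higher and 8687 as lower. Against the pool, MT-CO1 fell by 0.13 on the log2 scale (edgeR adjusted p = 0.0019), and MT-ND1 (0.24), MT-ND3 (0.20), MT-ND2 (0.19), MT-ND6 (0.18) and MT-CYB (0.13) rose. MT-CO2, MT-CO3, MT-ATP6, MT-ND4, MT-ND4L and MT-ND5 were not called against the pool. MT-RNR2 fell by 0.37 (adjusted p = 2.5e-08), MT-RNR1 by 0.23 and MT-ATP8 by 0.39. The median of all tested genes was -0.29 under this scaling, a larger fall than that of MT-RNR1. The largest log2 ratio of shares was that of MT-ATP8, at 0.0401% and 0.0305% of the pool with overlapping groups (exact two-sided permutation test, p = 0.20).

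**Figure D3:**
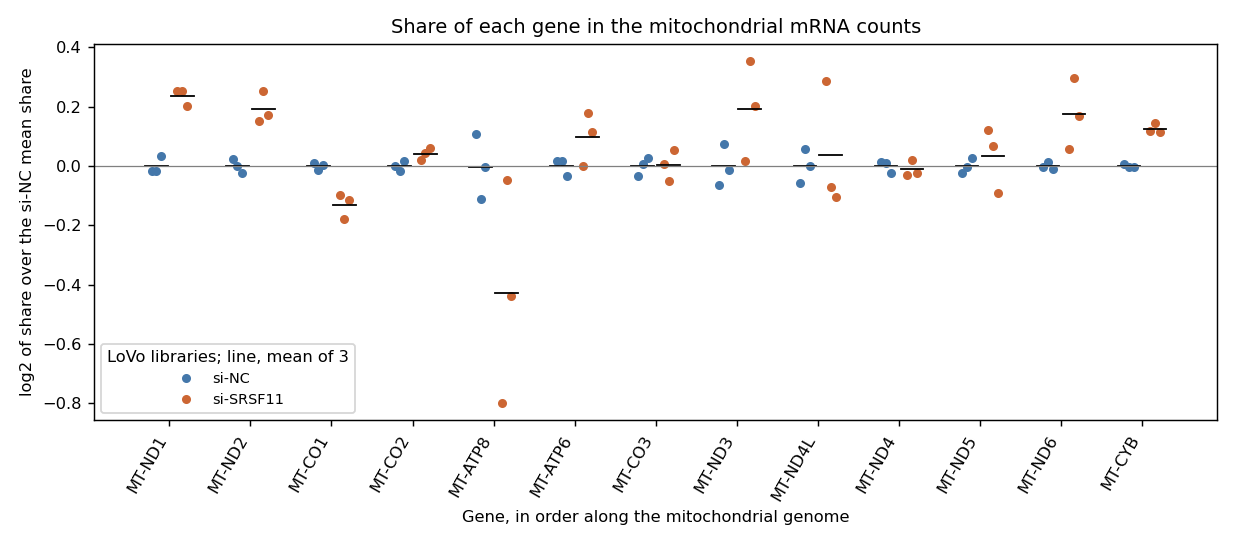
Log2 of each gene's share of the mitochondrial mRNA counts over its mean si-NC share (vertical axis), in order along the genome, with points for the 6 libraries and lines for means of 3. MT-CO1 lies below 0 and MT-ND1, MT-ND2 and MT-CYB above 0 in all 3 si-SRSF11 libraries, and MT-ATP8, MT-ND3 and MT-ND4L spread widely.

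The nuclear copies together took 0.0630%, 0.0703% and 0.0677% of all counts in si-NC and 0.103%, 0.112% and 0.0975% in si-SRSF11. The groups did not overlap, and the ratio of means was 1.56 (exact two-sided permutation test, p = 0.10). Nearly all of this signal sat on few copies. Of the 394 copies, 323 had 0 counts in all 6 libraries, which allows up to 0.18 to 0.209 CPM per library (3 counts). A further 65 were detected but did not pass the filter, and held 399 of the 81088 copy counts. Only 6 passed.

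Likeness to the mitochondrial gene was measured by local alignment of GENCODE 29 transcript sequences, and most copy counts lay on a few very alike copies. The 11 copies with over 95% identity across at least 100 aligned bases held 80650 counts, 99.46% of the copy total. The 10 copies between 90% and 95% held 139 counts and the 351 at 90% or less held 280, although 55 of the 71 copies with any count were among the latter. Very alike copies could also be at 0, as were MTATP8P1 (97.58%) and MTCO2P2 (97.4%). A block of 7 copies on chromosome 1 (hg38, chr1:629062-634922), in the order of the mitochondrial genome and 97.58% to 99.43% identical to it, held 99.25% of the copy counts. Counts within this block were very uneven, from 43568 over 6 libraries on MTATP6P1 and 30451 on MTND2P28 to 34 on MTCO2P12 and 0 on MTATP8P1. Windows of 100 bases that occur unchanged in a mitochondrial gene made up 11.9% of MTATP6P1, 26.0% of MTND2P28 and 27.8% of MTCO1P12. The longest run identical to the mitochondrial gene was 141 bases in MTATP6P1, shorter than a read of 150 bp. It was 266 bases in MTND2P28 and 245 in MTCO1P12, where whole reads can match both. How reads that match both, or differ at few bases, were assigned is not given, which makes the levels of these copies uncertain.

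**Figure D4:**
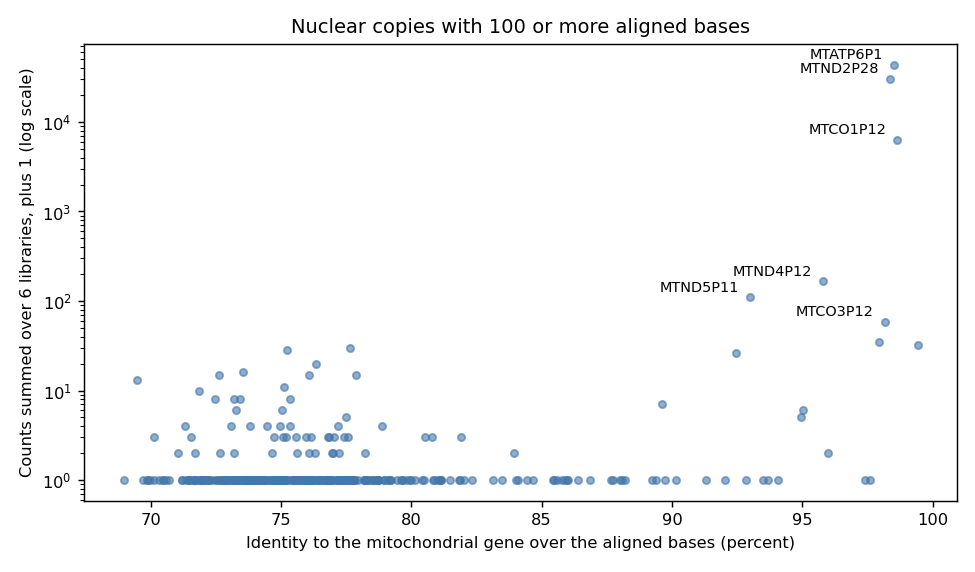
Counts summed over the 6 libraries plus 1 (log axis) against percent identity to the mitochondrial gene, for nuclear copies with 100 or more aligned bases, with 1 point per copy and names for the 6 that passed the filter. The highest points, MTATP6P1, MTND2P28 and MTCO1P12, lie at 98.53%, 98.37% and 98.64% identity, and most copies sit at 0 counts.

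The 60-base stretches with the most differences show how far a copy departs from its source. MTATP6P1 and MTCO1P12 differ at 3 bases there, MTND2P28 at 4 and MTND5P11 at 14. Capitals mark the bases that differ between the members of a pair, the first of which is the mitochondrial gene.
MT-ATP6, MT:8642-8701, plus strand: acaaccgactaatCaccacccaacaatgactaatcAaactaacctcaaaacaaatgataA
MTATP6P1, chr1:633811-633870, plus strand: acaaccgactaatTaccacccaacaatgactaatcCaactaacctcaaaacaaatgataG
MT-ND2, MT:4899-4958, plus strand: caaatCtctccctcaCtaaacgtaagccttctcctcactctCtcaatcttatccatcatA
MTND2P28, chr1:630069-630128, plus strand: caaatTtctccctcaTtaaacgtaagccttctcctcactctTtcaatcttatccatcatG
MT-CO1, MT:6207-6266, plus strand: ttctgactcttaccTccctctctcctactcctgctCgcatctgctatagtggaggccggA
MTCO1P12, chr1:631377-631436, plus strand: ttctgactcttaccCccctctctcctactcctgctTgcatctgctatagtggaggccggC
MT-ND5, MT:13729-13788, plus strand: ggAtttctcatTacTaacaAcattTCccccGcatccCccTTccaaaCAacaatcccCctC
MTND5P11, chr5:134925008-134925067, minus strand: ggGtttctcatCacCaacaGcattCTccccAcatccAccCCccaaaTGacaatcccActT

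MTATP6P1 differs from MT-ATP6 at 10 of 681 aligned bases, MTND2P28 from MT-ND2 at 17 of 1042 and MTCO1P12 from MT-CO1 at 21 of 1543. MTND5P11 differs from MT-ND5 at 127 of 1812 and none of its 100-base windows occurs unchanged in a mitochondrial gene.

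Of the 6 copies that passed the filter, 3 were higher and 1 was lower in si-SRSF11. Over all tested genes, 13.2% were called as higher and 11.4% as lower, and 38.8% had no overlap between the groups. MTATP6P1 (ENSG00000248527, chr1:633696-634376, plus strand) had 283, 342 and 324 CPM in si-NC and 607, 651 and 555 in si-SRSF11. All si-SRSF11 libraries lay far above si-NC, at a log2 fold change of 0.93 (standard error 0.063, edgeR adjusted p = 6.1e-10). MTND2P28 (ENSG00000225630, chr1:629640-630683, plus strand) had 276, 283 and 283 CPM in si-NC and 360, 391 and 349 in si-SRSF11, also without overlap (log2 fold change 0.39, standard error 0.049, edgeR adjusted p = 5.1e-06). MTCO1P12 (ENSG00000237973, chr1:631074-632616, plus strand) had 57.3, 56.0 and 59.5 CPM in si-NC and 59.99, 85.9 and 84.7 in si-SRSF11. Its si-SRSF11 replicate 1 lay just above the si-NC range, and the log2 fold change was 0.42 (standard error 0.090, edgeR adjusted p = 0.0015, DESeq2 adjusted p = 0.061). MTCO1P12 shares 89 bases with MIR6723 and 74 with AL669831.3, both on the opposite strand.

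MTND5P11 (ENSG00000248923, chr5:134924648-134926459, minus strand) had 21, 26 and 24 counts in si-NC and 13, 17 and 9 in si-SRSF11. It was lower in each si-SRSF11 library, at a log2 fold change of -0.95 (standard error 0.34, edgeR adjusted p = 0.045). The call was lost without the filter on low counts (adjusted p = 0.058) and without any 1 library except si-SRSF11 replicate 2 (0.072 to 0.14). DESeq2 called no copy as lower. MTND4P12, beside it on chromosome 5, had 18, 27 and 18 counts in si-NC and 18, 51 and 33 in si-SRSF11 and was not called (log2 fold change 0.60, edgeR adjusted p = 0.20). Without si-SRSF11 replicate 1 its log2 fold change was 0.88 (adjusted p = 0.046), and without replicate 2 it was 0.20 (adjusted p = 0.76). MTCO3P12, the last copy of the chromosome 1 block, had 5, 6 and 7 counts in si-NC and 17, 11 and 12 in si-SRSF11 (log2 fold change 1.05, edgeR adjusted p = 0.093). It passed the filter only through the si-SRSF11 libraries.

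Relative to its mitochondrial gene, MTATP6P1 was higher in si-SRSF11 and MTND5P11 lower in all 3 libraries, while MTND2P28 overlapped. MTATP6P1 counts per 100 MT-ATP6 counts were 5.31, 6.39 and 6.40 in si-NC and 9.68, 8.78 and 7.98 in si-SRSF11, a ratio of means of 1.46 with no overlap (exact two-sided permutation test, p = 0.10). MTND2P28 counts per 100 MT-ND2 counts were 9.15, 9.502 and 9.83 in si-NC and 9.15, 8.88 and 8.54 in si-SRSF11, with overlapping ranges and a ratio of 0.93. MTND5P11 counts per 100 MT-ND5 counts were 0.0584, 0.0678 and 0.0609 in si-NC and 0.0254, 0.0318 and 0.0191 in si-SRSF11, also with no overlap. The MTND5P11 values rest on 9 to 26 counts in a library. Over the 6 copies tested this way, adjusted p was at least 0.20. Against the mitochondrial mRNA pool, edgeR gave MTATP6P1 a log2 fold change of 0.64 (adjusted p = 1.2e-09) and MTND2P28 one of 0.09 (adjusted p = 0.14).

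Beside MTND2P28 of the same chromosome 1 block, MTATP6P1 was higher in si-SRSF11, with 102, 121 and 115 counts per 100 MTND2P28 counts in si-NC and 169, 167 and 159 in si-SRSF11 (p = 0.10, exact two-sided permutation test). It made up 47.7% ± 2.15 of all copy counts in si-NC and 57.2% ± 1.47 in si-SRSF11 (SD, n = 3 each). With MTATP6P1 left out, counts on the copies per 100 counts on their mitochondrial genes averaged 0.537 ± 0.0109 with si-NC and 0.573 ± 0.0275 with si-SRSF11. With it they averaged 1.03 ± 0.0551 and 1.34 ± 0.0758 (SD, n = 3 each).

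**Figure D5:**
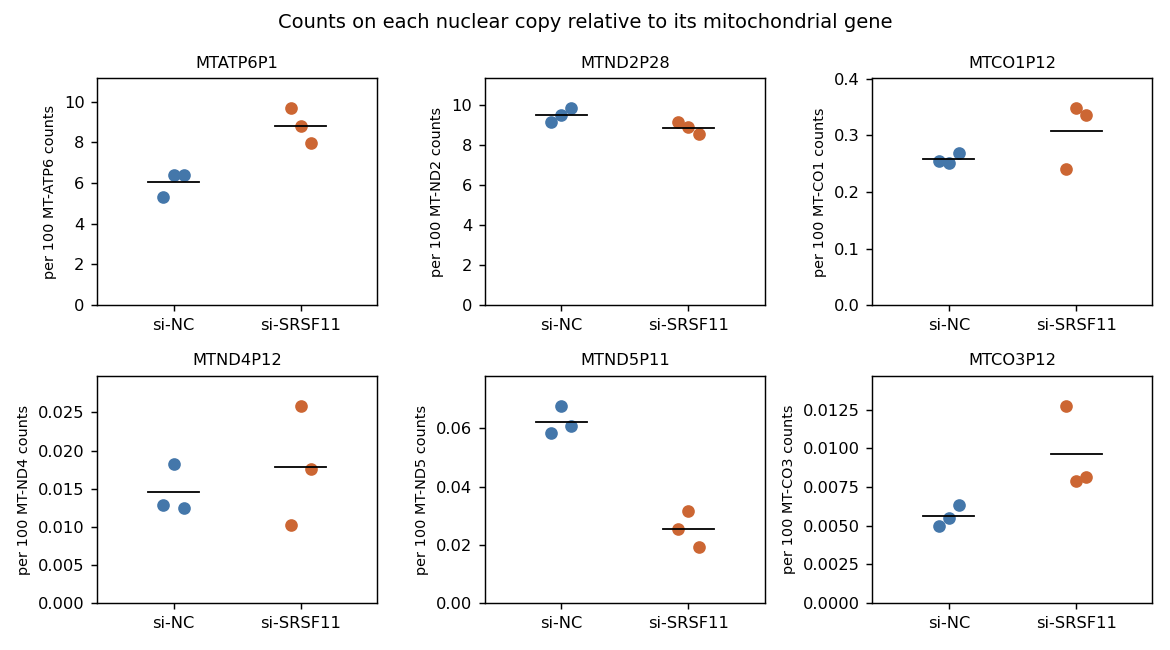
Counts on each of the 6 nuclear copies that passed the filter per 100 counts on its mitochondrial gene (vertical axes start at 0 and differ between panels), with points for libraries and lines for means of 3. The si-SRSF11 points lie above si-NC for MTATP6P1, below it for MTND5P11, and overlap it for MTND2P28, MTCO1P12 and MTND4P12, while MTCO3P12 passed the filter only through its si-SRSF11 counts.

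Nuclear genes whose products replicate, transcribe, process or degrade mitochondrial nucleic acids were read beside the mitochondrial genes. Of 57 listed genes, 56 were tested, and 22 were higher and 4 lower in si-SRSF11 with a median log2 fold change of 0.13, where 24.6% of all tested genes and 27.3% of nuclear protein-coding genes were called. DESeq2 called 17 (14 higher, 3 lower), and the edgeR fit called 15 without si-NC replicate 1 and 16 without si-NC replicate 3 or si-SRSF11 replicate 2. ATAD3A, a membrane protein bound to mitochondrial nucleoids, went from 64.2 to 98.3 CPM (log2 fold change 0.61, edgeR adjusted p = 7.5e-08). TWNK, the mitochondrial DNA helicase, had a log2 fold change of 0.47, and LRPPRC, which stabilises mitochondrial mRNAs, one of 0.35. TRMT10C, a subunit of the mitochondrial RNase P that frees tRNA 5′ ends, had a log2 fold change of 0.50, and TOP1MT, a mitochondrial topoisomerase, one of 0.26. MGME1 (-0.24), TRMU (-0.22), FASTK (-0.22) and MTERF4 (-0.20) were lower on the log2 scale. Of the core transcription machinery, TFB2M rose by 0.43 on the log2 scale, while POLRMT, the RNA polymerase, was at 0.07 (adjusted p = 0.31) and TFAM, which packages the DNA and starts transcription, at -0.02 (adjusted p = 0.83).

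Nuclear genes for subunits of the same respiratory complexes were all tested, 72 in number, with 24 higher, 2 lower and a median log2 fold change of 0.08, where 13.2% of all tested genes were higher and 11.4% lower. The split was 17 higher and 9 lower without si-SRSF11 replicate 3, and library size scaling gave 20 higher and 6 lower. NDUFS5 of complex I had a log2 fold change of 0.44, COX6B1 and COX7C of complex IV 0.38 and 0.26, and ATP5F1E of complex V 0.31. The lower genes were NDUFS7 of complex I and ATP5PD of complex V, at -0.30 and -0.17.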

How the data were processed

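Gene counts of 6 LoVo libraries (3 si-NC, 3 si-SRSF11) were analysed. The authors deposited whole-number counts per gene with no normalization. The build is hg38 per the submitters' processing notes; the aligner, the counting program and its strand setting are not given in the sources used here. All 431 member coordinates equalled those of GENCODE 29. Samples were grouped by the labels. Genes reaching 10 counts in 3 or more libraries entered edgeR (4.0.16, under R 4.3.3), with TMM factors on full library totals, glmQLFit and glmQLFTest, and the standard error came from the F statistic. Ratios and shares were compared by exact permutation. DESeq2 (version 1.42.0), other scalings and filters, the replicate block and each library left out were alternatives. Copies were aligned with Biopython (version 1.88). On simulated counts for 15801 genes, 126 of 198 changed genes and 7 of 15370 unchanged genes were called. Far fewer genes changed there than the 3885 called here, so these rates need not hold for these data. Named genes were all members that passed the filter, SRSF11 and up to 5 called genes of each list with the smallest adjusted p, with those lower in a list and TFAM, POLRMT, TFB2M added after their values were seen. Members and lists were chosen with earlier results of these data known. Some genes of the lists are not reported here.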

Additional observations from a re-analysis of the deposited data

How the results depend on the processing

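Direction and side of the threshold held for SRSF11 (-0.82 to -0.79 with a library left out) and for 12 mitochondrial mRNA genes under the 13 alternative fits. Scaling to the mitochondrial mRNA pool, not among these, turned MT-CO1 to -0.13 and left 6 of the 12 uncalled. The median over mRNA genes stayed between 0.333 and 0.381 with a library left out. With a log2 fold change over 1 also asked for, called genes fell from 3885 to 173 over all genes and from 14 to 1 on the mitochondrial genome, by construction. DESeq2 called 2 of 6 copies in place of 4, and 17 in place of 26 nuclear genes of mitochondrial genome expression; the cause was not tested. With a library left out, these lists held 3 to 4, and 15 to 22, called genes. All calls numbered 2741 to 3871 then, those on the mitochondrial genome 12 to 15 and nuclear respiratory genes 18 to 27, with fewer samples. Scaling by library size gave 41.0% of calls as higher, in place of 53.6%. The largest shift in the mRNA pool, -0.396 for MT-ATP8, became 0.24 for MT-ND1 without MT-ND4L, MT-ATP8 and MT-ND6, 0.236 for MT-ND1 without MT-ATP8, and -0.391 (called) with edgeR scaled to the pool, the last 2 chosen after seeing the data. It ran from -0.608 to 0.28 with a library left out. Ratios of si-SRSF11 to si-NC then ran from 1.16 to 1.19 for the mitochondrial share, 1.4998 to 1.61 for the copies and 1.26 to 1.34 for copies per mitochondrial gene count. Signs turned with a library left out for MT-ATP8 (-0.326 to 0.076), MT-RNR1 (-0.03 to 0.233), MT-TC (-0.03 to 0.133), MT-TY (-0.186 to 0.045) and MT-TT (-0.179 to 0.525), none of them called with all 6 libraries. Pairing by replicate number was weak at most. Correlations of same-numbered deviations were 0.015, 0.036 and 0.04, each highest for its own number, and those of other pairs ran from -0.034 to -0.003. The replicate block gave 4036 calls over all genes in place of 3885, 14 on the mitochondrial genome, 4 copies, and 28 and 29 list genes. The exact sign-flip p was 0.25 for the shares, the smallest 3 pairs allow. Limits are the low counts of many copies and tRNAs, the selection on poly-T beads, and the unknown handling of reads shared between copies and mitochondrial genes.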

Other observations

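MTRNR2L genes are nuclear genes that resemble the 16S rRNA and carry humanin-like reading frames. All 13 in the table stayed below the count filter, and 8 had 0 counts in each of the 6 libraries. The highest, MTRNR2L4, had 4, 7 and 1 counts in si-NC and 4, 7 and 4 in si-SRSF11, beside 67033 to 72256 counts on MT-RNR2. MTRNR2L8 had 4, 2 and 2 counts in si-NC and 2, 0 and 6 in si-SRSF11, and MTRNR2L12 had 4, 1 and 1 against 0, 1 and 5. Genes below the filter were not tested in the main fit, so no difference is stated for them.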
